A study of Mus musculus with 18 samples.

Results

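Actins and tropomyosins, the proteins of the thin filament and of the cytoskeleton, were followed through 9 genes: Acta1, Actc1, Acta2, Actg2, Actb, Actg1, Tpm1, Tpm2 and Tpm3. Every probe set whose single gene symbol in the platform annotation was one of these 9 was taken; in all, 8252 genes have a probe set with a single symbol. The 9 genes gave 19 of the 12488 probe sets in the table, 14 for actins and 5 for tropomyosins. Of these, 17 passed the filter on low values that left 8915 probe sets for testing. Actb had 8 probe sets, Actc1, Tpm2 and Tpm3 had 2 each, and the other 5 genes had 1 each.

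The samples came from heart, leg muscle and extraocular muscle, which turns the eyeball, of mice at 8 weeks of age. Total RNA was read on 18 Affymetrix arrays in 6 groups of 3. In each tissue, dko mice were set against mdx mice, which the labels name as the control. The labels do not spell out either genotype: mdx mice carry a mutation in Dmd and lack dystrophin, and dko is in common use the name of mice that lack utrophin as well. Neither the labels nor the table say which alleles were used or whether the 3 replicates of a group came from separate animals. Each p-value therefore reflects the spread among these samples alone, and that spread could be technical.

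All values are intensities on a linear scale, as deposited. Differences are on the scale of log2(intensity + 166.1), which makes the change of a dim probe set look smaller than its ratio. A probe set was called, and is said to have risen or fallen, at a Benjamini-Hochberg adjusted p under 0.05 over all 8915 probe sets in limma. The labels number the arrays of each group 1 to 3. The 6 arrays numbered 3 stood apart, with median intensities of 525.6 to 573.8, against 612.6 to 671.8 on the remaining 12, and their brightest probe sets read 47024 to 74434, against 33355 to 47589. Because arrays of the same number deviated from their group means together, each comparison is given without and with the replicate number as a block. Utrophin, Utrn, had 2 probe sets, of which 92507_at was lower in dko than in mdx in 9 of 9 pairs of the same tissue and number (220.2 to 414.3 in dko and 553.3 to 1086.5 in mdx extraocular muscle, 219.9 to 292.3 and 587.6 to 672.1 in heart, 239.6 to 298.2 and 437.6 to 550.7 in leg). The other, 92508_s_at, was lower in 8 of 9 pairs, with ranges that overlapped in leg (233.0 to 645.7 in dko and 437.8 to 738.2 in mdx). Which part of the transcript they read was not known here. Several markers set heart apart from the skeletal muscles. Cardiac troponin I, Tnni3, read 14272 to 71792 in the 6 hearts and at most 1528 elsewhere. Fast troponin T, Tnnt3, read at least 19491 in extraocular and leg muscle and at most 385 in heart. Tnni2, fast troponin I, read at least 5007.4 and at most 211.5 in the same tissues. Mylpf, a fast myosin light chain, was less clear: it read 329.1 to 2107.9 in mdx leg, against 375.7 to 1478.3 in mdx heart.

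The thin filament of striated muscle is a twisted strand of actin along which tropomyosin lies end to end, and troponin moves tropomyosin aside when calcium rises so that myosin can bind. Acta1 (skeletal alpha-actin) and Actc1 (cardiac alpha-actin) make the sarcomeric actins. Adult limb muscle is known to use mainly Acta1 and adult heart mainly Actc1, while developing and regenerating muscle also expresses Actc1. Acta2 and Actg2 make the smooth muscle actins of vessels and of the gut, and Actb and Actg1 make the cytoplasmic actins found in nearly all cells. Dystrophin and utrophin both bind cytoplasmic actin at the muscle membrane. Of the tropomyosin genes, Tpm1 makes alpha-tropomyosin, the main form of heart and fast fibres, Tpm2 makes beta-tropomyosin of skeletal muscle, and Tpm3 makes the slow fibre form; each also gives rise to non-muscle isoforms, which a 3′ array does not always separate.

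Muscle actin genes are known targets of serum response factor, which binds the CArG box, and many muscle genes are targets of the myogenic factors, which bind the E-box. RefSeq start sites on GRCm38.p6 gave promoter windows of 300 bases, 250 before to 50 after the start, for 7 of the 9 genes (8 windows, 2 of them for Tpm3). A CArG box was searched by that name on both strands, with 6 A or T bases between its ends, and was found in 3 of the 8 windows: Acta1, 73 to 64 bases before the start, Actc1, 47 to 38 before, and Actg1, 90 to 81 before. It was found in 1.63% of the 32851 windows of all genes. Only exact matches were counted, and near matches, such as ccctatatgg in the Acta2 and Actc1 windows, were not. The E-box, CANNTG, was found in 8 of 8 windows and in 72.3% of all windows. The sequences of the 4 genes on which the comparisons turn are given 5′ to 3′ on the strand of the gene, with the CArG box of the actins and the E-box of the tropomyosins in capitals. The E-boxes of the actin windows are left in lower case. A match is a description of the letters and not evidence of binding.
Acta1, chr8:123894726-123895025, minus strand: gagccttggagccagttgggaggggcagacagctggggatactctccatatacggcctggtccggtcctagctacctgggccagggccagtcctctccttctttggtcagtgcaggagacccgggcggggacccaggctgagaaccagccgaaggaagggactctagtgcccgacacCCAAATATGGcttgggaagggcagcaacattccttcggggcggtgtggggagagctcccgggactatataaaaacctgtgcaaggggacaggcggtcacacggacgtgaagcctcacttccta
Actc1, chr2:114052826-114053125, minus strand: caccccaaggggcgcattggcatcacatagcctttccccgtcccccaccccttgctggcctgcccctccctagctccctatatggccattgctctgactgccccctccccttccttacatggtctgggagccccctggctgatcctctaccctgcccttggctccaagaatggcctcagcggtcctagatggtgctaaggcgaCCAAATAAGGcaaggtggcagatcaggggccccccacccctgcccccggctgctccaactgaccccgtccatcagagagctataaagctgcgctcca
Tpm2, chr4:43523505-43523804, minus strand: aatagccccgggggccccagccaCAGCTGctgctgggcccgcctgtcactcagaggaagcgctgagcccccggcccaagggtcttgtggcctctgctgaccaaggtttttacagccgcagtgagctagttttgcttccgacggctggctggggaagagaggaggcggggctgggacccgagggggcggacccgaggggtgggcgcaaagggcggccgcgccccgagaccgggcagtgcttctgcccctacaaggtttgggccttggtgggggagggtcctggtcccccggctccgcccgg
Tpm3, chr3:90072401-90072700, plus strand: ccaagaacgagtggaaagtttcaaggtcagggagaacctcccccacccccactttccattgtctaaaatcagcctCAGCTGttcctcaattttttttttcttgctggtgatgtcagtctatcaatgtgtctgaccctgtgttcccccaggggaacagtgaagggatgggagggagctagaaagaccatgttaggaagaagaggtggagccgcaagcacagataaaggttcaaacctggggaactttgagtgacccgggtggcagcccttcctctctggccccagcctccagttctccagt

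Between tissues, Acta1 (probe set 100381_at), skeletal alpha-actin, was high in extraocular muscle and lower in heart and in most leg arrays. In extraocular muscle it read 16594.8, 28889.7 and 53392.1 on dko arrays 1, 2 and 3, against 26606.4, 23032.7 and 30152.9 on mdx arrays. In heart it read 4861.3, 6806.6 and 6606.3 in dko, against 14479.6, 13100.4 and 14452.2 in mdx. In leg it read 1281.8, 1915.0 and 20656.3 in dko, against 256.1, 247.7 and 6656.3 in mdx. Extraocular muscle was therefore high on all 6 arrays, and leg was split, with array 3 of each genotype far above the other two. In order of the group means, dko and mdx extraocular muscle overlapped, mdx extraocular muscle lay clear above mdx heart, and from mdx heart down through dko leg, dko heart and mdx leg each neighbouring pair overlapped.

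The low Acta1 readings of leg muscle go against what is known of adult limb muscle, and they rest on arrays 1 and 2. Among the 1111 probe sets that read over 5000 on mdx leg array 3, 9 (0.81%) were at least 10 times higher there than on both other mdx leg arrays, and Acta1 was one of them at 26 times. In dko leg 1 of 1130 (0.0885%) was, with Acta1 at 10.8 times. In the other 4 groups Acta1 on array 3 was 0.971 to 1.85 times the higher of the other two. The control probe set for the middle of Gapdh, a glycolytic enzyme, also differed widely among leg arrays, at 21776.8, 1818.4 and 28463.7 in dko leg and 6204.6, 1523.0 and 36881.4 in mdx leg. Array 2 was the lowest of both leg groups for Gapdh, and the cause of the Acta1 levels was not tested.

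With those arrays included, Acta1 was higher in extraocular muscle and in heart than in leg of mdx mice. The log2 differences were 4.65 ± 0.96 (SE; adjusted p = 0.0116 in limma) and 3.74 ± 0.96 (adjusted p = 0.0195), with n = 3 arrays in each group; both comparisons share the 3 mdx leg arrays. The extraocular call ended without mdx leg array 1 (adjusted p = 0.0581) or 2 (0.0723), and the heart call ended without mdx leg array 1 (0.0994) or 2 (0.106) or any 1 of the 3 mdx heart arrays (0.0518 to 0.0597). Over 13 alternatives the adjusted p ran from 9.74e-06 to 0.102 for extraocular muscle and from 4.15e-06 to 0.106 for heart. Without the 6 arrays numbered 3 the log2 differences were 5.90 (adjusted p = 9.74e-06) and 5.06 (4.15e-06). In dko mice the differences were 2.90 for extraocular muscle against leg (adjusted p = 0.19, and 0.0265 with a replicate block common to all arrays) and 0.64 for heart against leg (0.838 and 0.59). Without the 6 arrays numbered 3 these were 3.67 (0.000599) and 1.77 (0.00412), both past the threshold. For extraocular muscle against heart they were 2.26 in dko (0.214 and 0.0454) and 0.91 in mdx (0.78 and 0.45).

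**Figure D1:**
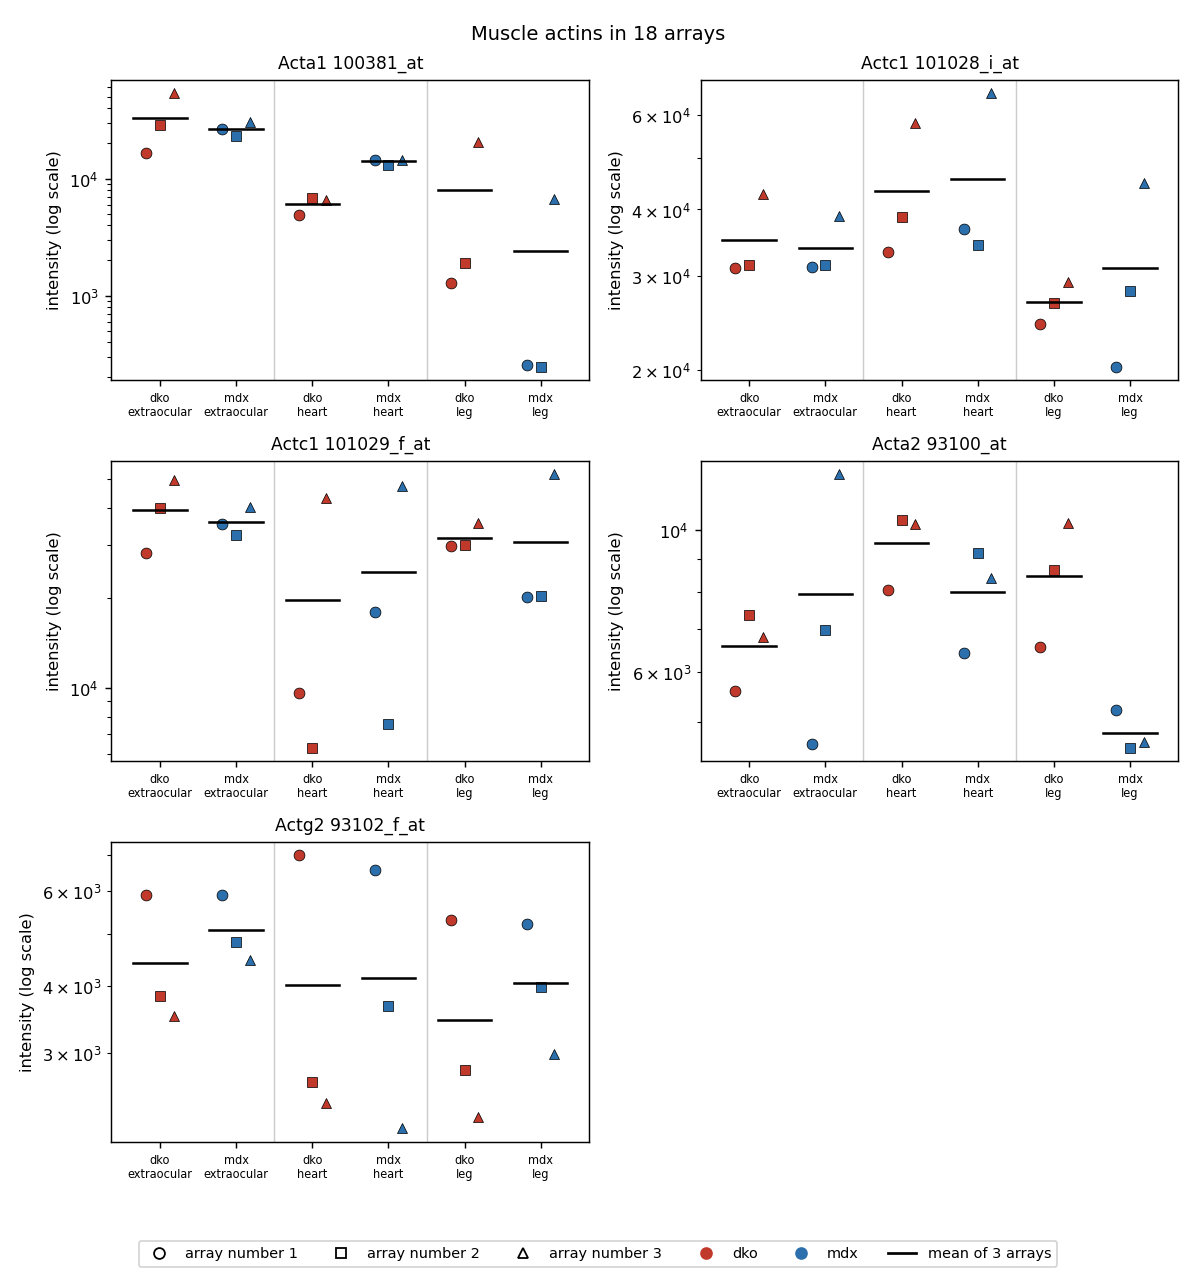
Intensity of the muscle actin probe sets on a log scale (vertical axis) in each of 18 arrays, by group (horizontal axis); circles, squares and triangles are arrays 1, 2 and 3 and the bar is the mean of 3 arrays. Acta1 is low on leg arrays 1 and 2 of both genotypes and not on leg array 3, and Actg2 is lowest on array 3 in all 6 groups.

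Actc1, cardiac alpha-actin, was bright in all 3 tissues, and its 2 probe sets ordered the tissues differently. By brightness, 101028_i_at lay at the 99.14th to 100th percentile of every array, and whether readings this bright are compressed was not tested. On the leg arrays both sets read above Acta1, which also goes against what is known of adult limb muscle. How far either set reads other actins as well was not known here. Probe set 101028_i_at read 33355.1, 38705.8 and 58099.0 in dko heart, against 36725.6, 34318.1 and 65973.4 in mdx heart. It read 31062.6, 31549.0 and 42737.0 in dko and 31256.4, 31463.8 and 38899.1 in mdx extraocular muscle, and 24444.7, 26704.7 and 29292.1 in dko and 20325.3, 28202.3 and 44820.3 in mdx leg. The hearts were high, but each neighbouring pair of groups in order of the means overlapped. Among groups that are not neighbours, dko heart and dko extraocular muscle each lay wholly above dko leg. In mdx mice both tissues overlapped leg. Heart stood above leg by 0.65 ± 0.31 in dko and 0.56 ± 0.31 in mdx, with adjusted p = 0.236 and 0.343 without a block and 0.0121 and 0.028 with the common block.

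The other Actc1 probe set, 101029_f_at, whose suffix marks in the maker's naming a set that can match several members of a family, ran the other way. It read 9574.3, 6297.4 and 43279.9 in dko heart and 17986.8, 7531.6 and 47438.7 in mdx heart, against 29791.8, 30023.5 and 35550.1 in dko leg and 20090.5, 20259.8 and 51843.2 in mdx leg. In dko extraocular muscle it read 28350.4, 39960.3 and 49791.0, and in mdx extraocular muscle 35306.5, 32536.4 and 40216.3. Heart was low on arrays 1 and 2 and not on array 3. For heart against leg its log2 difference was -1.19 in dko (adjusted p = 0.337, 0.0663 with the common block) and -0.56 in mdx (0.761 and 0.403). For extraocular muscle against heart it was 1.46 in dko (0.241 and 0.0322) and 0.94 in mdx (0.567 and 0.17). Without the 6 arrays numbered 3 the heart against leg difference was -1.92 in dko (0.00844) and -0.78 in mdx (0.249), and the extraocular against heart difference was 2.09 in dko (0.00671) and 1.53 in mdx (0.0359). Both the arrays kept and the block thus bear on which of these pass. The direction of Actc1 between heart and leg therefore depends on the probe set, and no single direction is given for the gene.

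Of the smooth muscle actins, Acta2 (93100_at), the actin of vessel walls, read 5597.1, 7356.0 and 6801.0 in dko and 4630.9, 6957.5 and 12200.3 in mdx extraocular muscle. It read 8056.9, 10342.3 and 10215.2 in dko and 6416.4, 9203.9 and 8393.9 in mdx heart, and 6545.4, 8651.8 and 10232.7 in dko and 5221.5, 4566.4 and 4650.7 in mdx leg. In order of their means, each neighbouring pair among the first 5 groups overlapped, but dko extraocular muscle lay wholly below dko heart. The last group, mdx leg, lay clear of its neighbour, dko extraocular muscle, but overlapped mdx extraocular muscle. In mdx mice heart stood above leg by 0.70 ± 0.28 (adjusted p = 0.158, and 0.0292 with the common block). Actg2 (93102_f_at), the actin of gut smooth muscle, also a set that can match several family members, ran from 2171.6 to 6995.2 over all arrays. It varied with the number of the array: its mean was 5982 on arrays 1, 3626 on arrays 2 and 2975 on arrays 3, and array 3 was the lowest of its group in 6 of 6 groups.

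The cytoplasmic actins showed no tissue pattern that passed in any of the 6 tissue comparisons, with or without the common block. Actg1 (96573_at) read 20609.9 to 40802.1 over the 18 arrays, and array 3 was highest in 5 of 6 groups. The probe sets of Actb, beta-actin, often used as a reference gene, did not move alike. Probe sets 101578_f_at (2372.6 to 9691.9) and 95705_s_at (2047.2 to 11889.2) were lowest on array 3 in 6 of 6 groups, while the control probe sets for the 3′ end and the middle of Actb were highest on array 3 in 6 of 6 groups. The control set for the 5′ end was highest there in 5 of 6. The 3 sense-strand control sets of Actb read at most 1694.5, 1311.5 and 890.1.

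The control set for the 3′ end of Actb was low on 1 array: it read 18406.4, 941.9 and 30467.3 in dko leg, against 22744.8, 7687.2 and 52729.2 in mdx leg. The middle set was not low there, at 24798.0, 22826.3 and 34602.4 in dko leg, against 12627.6, 18350.3 and 50935.1 in mdx leg. The log2 difference of the 3′ and 5′ sets was -4.28 on dko leg array 2, the lowest of 18, and -1.15 on mdx leg array 2. Over the 3 tissues the mean of this difference, dko minus mdx, was -0.65 for Actb and -0.55 for Gapdh, and it was lower in dko in 8 of 9 pairs of the same tissue and number for each. Two-sided exact sign flips within these pairs gave p = 0.0195 for Actb and p = 0.0156 for Gapdh (0.0195 for both after adjustment over the 2 genes). The flips treat the 9 pairs as independent. Arrays of one number in different tissues also deviated together (median r 0.535), so these p-values may be too small. An exact permutation of genotype inside each tissue that ignored the numbers gave p = 0.172 and p = 0.086. For Actb the pair furthest apart was leg array 2. For Gapdh the difference ran from -2.7 to -0.17, so that the 5′ set read above the 3′ set on every array. These ratios are a measure of RNA quality and labelling, and they were lower in dko in 8 of 9 pairs for each gene. Their direction is not read here as better or worse RNA, and their part in the dko against mdx results was not tested.

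**Figure D2:**
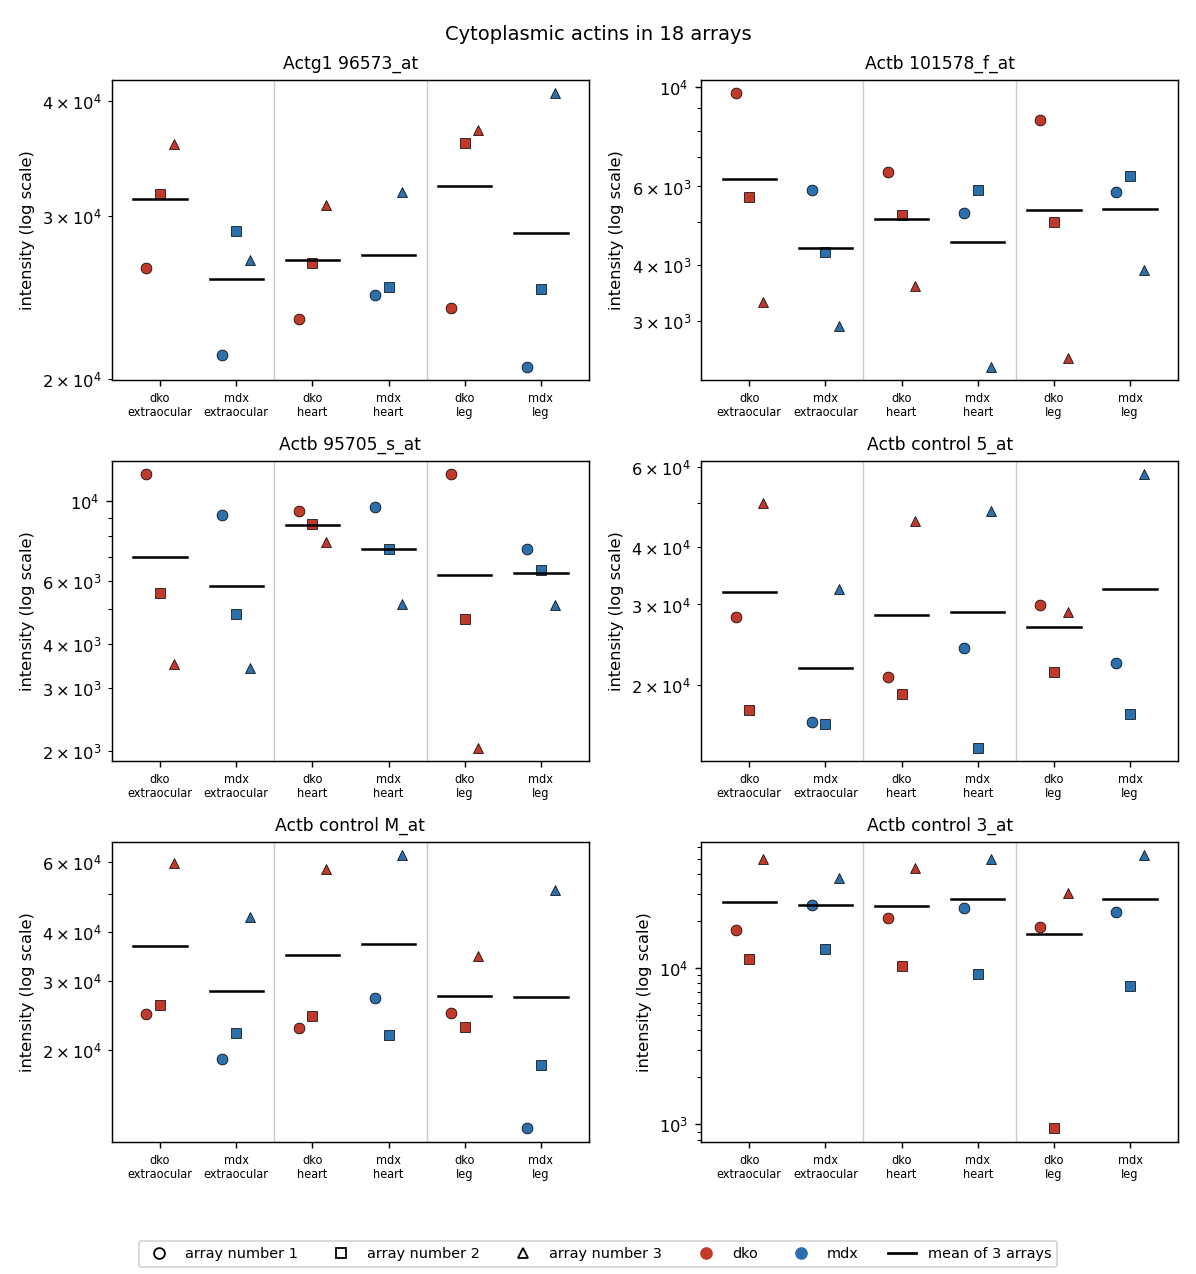
Intensity of the Actg1 and Actb probe sets on a log scale (vertical axis) in each of 18 arrays, by group (horizontal axis); circles, squares and triangles are arrays 1, 2 and 3, the bar is the mean of 3 arrays, and control 5, M and 3 are the sets for the 5′ end, the middle and the 3′ end of Actb. Triangles lie lowest in Actb 101578_f_at and 95705_s_at and highest in the control M and control 3 sets, and dko leg array 2 reads 941.9 in control 3.

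Of the tropomyosins, Tpm2 and Tpm3 separated extraocular muscle from heart in both genotypes, while Tpm1 passed in no tissue comparison without a block. Tpm2 (100605_at), beta-tropomyosin, was high in both skeletal muscles and low in heart. It read 25277.9, 18688.4 and 34135.9 in dko and 23259.4, 23404.9 and 31620.1 in mdx extraocular muscle. In heart it read 962.7, 1092.9 and 1416.4 in dko and 1114.0, 854.2 and 1416.6 in mdx, and in leg 36069.8, 28954.2 and 34862.2 in dko and 26627.7, 23680.8 and 55063.8 in mdx. Every heart array lay far below every array of the other tissues, and the 4 groups of skeletal muscle overlapped. For extraocular muscle against heart the log2 difference was 4.28 ± 0.31 in dko (adjusted p = 1.01e-07) and 4.35 ± 0.31 in mdx (8.55e-08), and for heart against leg it was -4.67 ± 0.31 in dko (3.8e-08) and -4.69 ± 0.31 in mdx (3.28e-08). These 4 calls held in 13 of 13 alternatives each.

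Tpm3 (93266_at), the slow fibre tropomyosin, was high in extraocular muscle, lower in leg and lowest in heart. It read 14673.2, 22585.2 and 55032.3 in dko and 23267.5, 20673.7 and 40402.5 in mdx extraocular muscle. It read 2172.5, 2223.5 and 779.6 in dko and 2829.8, 1880.9 and 1258.7 in mdx heart, and 11394.2, 9749.1 and 9950.6 in dko and 4563.1, 3760.0 and 2055.1 in mdx leg. The order of the groups had gaps in 2 places: extraocular muscle lay clear above dko leg, and dko leg clear above mdx leg. Extraocular muscle was above heart by 3.93 ± 0.47 in dko (adjusted p = 3.3e-05) and 3.72 ± 0.47 in mdx (7.1e-05), and above leg by 2.97 ± 0.47 in mdx (0.00188) and 1.34 ± 0.47 in dko (0.239, not past the threshold). Heart was below leg by a log2 difference of -2.59 ± 0.47 in dko (0.00143), against -0.75 ± 0.47 in mdx (0.441). The 4 calls held in 13 of 13 alternatives each. The second Tpm3 probe set, 93265_at, read 55.2 to 414.0 and was too dim to be tested, as was the second Tpm2 set, 161320_r_at, at 49.8 to 499.0.

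Tpm1, alpha-tropomyosin, by its only probe set, 160532_at, was highest by mean in extraocular muscle and lowest in heart. That order goes against the known place of alpha-tropomyosin as the main form of heart. The probe set lay at a median 74.5th percentile of the arrays, and which isoforms it reads was not known here. It read 1866.9, 2732.5 and 2728.6 in dko and 1653.1, 2552.2 and 4651.3 in mdx extraocular muscle. In heart it read 1158.3, 799.6 and 1898.8 in dko and 1353.1, 1065.3 and 1677.9 in mdx, and in leg 1359.9, 1743.2 and 1871.3 in dko and 1314.2, 1178.5 and 1706.3 in mdx. In order of the means, all neighbouring groups overlapped. Its log2 difference to heart was 0.90 in dko (adjusted p = 0.137, 0.014 with the common block) and 0.93 in mdx (0.129 and 0.0122), and to leg it was 0.51 in dko (0.747 and 0.222) and 0.89 in mdx (0.2 and 0.0205).

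**Figure D3:**
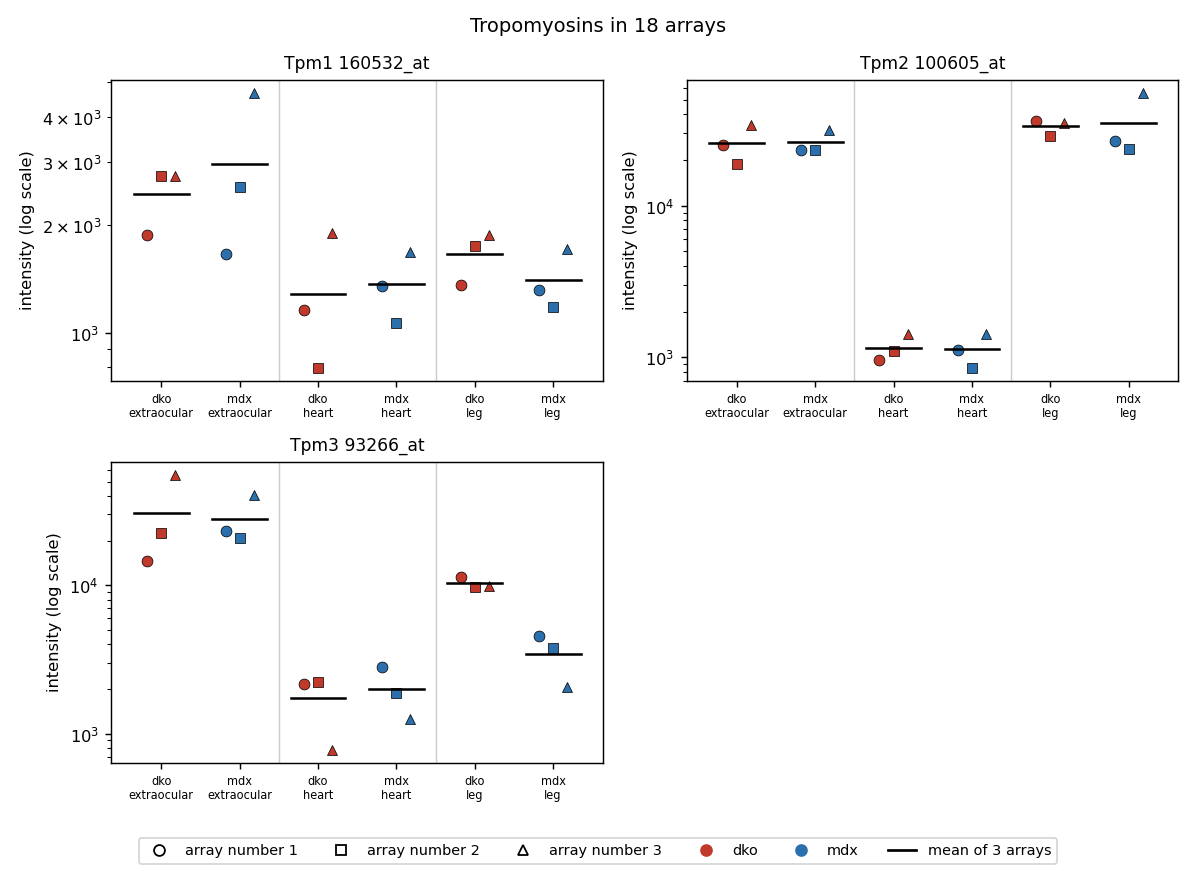
Intensity of Tpm1, Tpm2 and Tpm3 probe sets on a log scale (vertical axis) in each of 18 arrays, by group (horizontal axis); circles, squares and triangles are arrays 1, 2 and 3 and the bar is the mean of 3 arrays. Tpm2 is low on the 6 heart arrays (854.2 to 1416.6), and the 3 dko leg arrays lie above the 3 mdx leg arrays for Tpm3.

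Counted over the 17 probe sets, 2 were called without a block in each of 5 tissue comparisons. The background, the share of all 8915 probe sets called, was 7.54% for dko extraocular muscle against heart, 7.03% for mdx extraocular muscle against heart, 10.6% for dko heart against leg, 9.95% for mdx heart against leg and 4.03% for mdx extraocular muscle against leg. For dko extraocular muscle against leg 0 of 17 were called in limma (2 at an unadjusted p under 0.05), with a background of 2.05%. With the common block the counts were 5 (background 18.5%), 3 (17.6%), 3 (23.5%), 4 (22.8%), 3 (12.5%) and 1 (7.58%) in the same order. Each count without a block rests on 2 genes among Acta1, Tpm2 and Tpm3, and comparisons within a genotype share their arrays.

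Between genotypes, Acta1 and Tpm3 were the 2 of the 9 genes that rose in dko leg muscle, and of the 3 fits only the one with the replicate block within tissue called them. Without a block, limma called 0 of 17 probe sets for dko against mdx in extraocular muscle (0 at an unadjusted p under 0.05, background 0.0224%), in heart (0, background 0%) and in leg (2, background 0.0561%). With the block within tissue it called 0 in extraocular muscle (0 at an unadjusted p under 0.05, background 0.157%), 0 in heart (1, background 0%) and 2 in leg (background 1.2%). With the block common to all arrays it called 0 in each tissue (0, 0 and 4 at an unadjusted p under 0.05 in extraocular muscle, heart and leg; backgrounds 0.135%, 0% and 1.62%). In leg the median log2 difference of the 17 was 0.07, against -0.04 over all probe sets tested.

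Tpm3 in leg was higher in dko than in mdx on all 3 arrays, and the groups did not overlap. The dko reading was 2.5, 2.59 and 4.84 times the mdx reading on arrays 1, 2 and 3. The log2 difference was 1.60 (95% interval 1.04 to 2.17 with the block within tissue, adjusted p = 0.0206; 0.597 to 2.61 without a block, adjusted p = 0.368; adjusted p = 0.117 with the common block). The blocked call ended without the pair of any one number: the difference was 1.76 (adjusted p = 0.0674) without arrays 1, 1.74 (0.125) without arrays 2 and 1.31 (0.0823) without arrays 3. In extraocular muscle the difference was -0.03 (interval -0.591 to 0.532) and in heart -0.24 (-0.803 to 0.319).

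Acta1 in leg was also higher in dko on all 3 arrays, by 5.01, 7.73 and 3.1 times. The groups overlapped, since mdx array 3 read above dko arrays 1 and 2. The mdx readings on arrays 1 and 2, 256.1 and 247.7, lay at the 30.75th and 30.48th percentiles of their arrays. Both lay under the percentile level of the filter on low values, so the ratios 5.01 and 7.73 divide by dim readings. The log2 difference was 1.91 (95% interval 1.32 to 2.49 with the block within tissue, adjusted p = 0.0159; -0.141 to 3.95 without a block, adjusted p = 0.863; adjusted p = 0.212 with the common block). Within the block the difference was 1.97 (adjusted p = 0.0605) without arrays 1, 1.69 (0.128) without arrays 2 and 2.05 (0.0354) without the leg arrays 3. Leaving out all 6 arrays numbered 3 gave 2.05, with adjusted p = 0.0517 without a block and 0.0943 with the block within tissue. The pair on array 3, where Acta1 was not low, ran the same way as the pairs on arrays 1 and 2, where it was.

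In heart Acta1 lay the other way. Every dko heart read below every mdx heart, at 0.336, 0.52 and 0.457 times the mdx reading, and the log2 difference of -1.19 did not pass (adjusted p = 1 without a block, 0.434 with the block within tissue and 1 with the common block). The genotype difference in heart minus that in leg was -3.10 ± 0.37 (SE) in the fit with the block within tissue (adjusted p = 0.0212), the 1 of 17 called, against a background of 0.0673%. Without a block the same difference had an adjusted p of 1 and an interval of -5.99 to -0.205, and with the common block an adjusted p of 0.375 (0 of 17 called in both; backgrounds 0% and 0.0449%). For extraocular muscle minus leg it was -1.75 (adjusted p = 0.283 with the block within tissue). The other tissue differences had 0 of 17 called in the blocked fit, with backgrounds of 0.0337% for extraocular muscle minus leg (3 at an unadjusted p under 0.05) and 0% for extraocular muscle minus heart (1). For the mean of the 3 tissues 0 of 17 were called without a block (0 at an unadjusted p under 0.05, background 0.0897%) and with the block within tissue (2, background 0.718%).

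Acta2 in leg did not overlap between genotypes either, at 6545.4 to 10232.7 in dko and 4566.4 to 5221.5 in mdx. Its log2 difference of 0.78 did not pass (adjusted p = 0.557 without a block, 0.106 with the block within tissue, 0.0896 with the common block). In all, 2 of 17 probe sets had ranges apart in leg (9.94% of all), 1 in heart (3.9%) and 0 in extraocular muscle (5.64%). The other tested Actc1 and tropomyosin probe sets did not pass in leg in any of the 3 fits: Tpm2 was at 0.02 (interval -0.447 to 0.491 with the block within tissue, -0.626 to 0.67 without a block) and Tpm1 at 0.22 (-0.209 to 0.657 and -0.484 to 0.932). Actc1 was at -0.14 by 101028_i_at (-0.515 to 0.232 and -0.791 to 0.508) and at 0.20 by 101029_f_at (-0.351 to 0.741 and -1.18 to 1.57). The pairs did not run one way: the dko reading of Tpm2 was 1.35, 1.22 and 0.633 times the mdx reading on arrays 1, 2 and 3. Without the arrays numbered 3 the differences were 0.36 for Tpm2, 0.27 for Tpm1, and 0.09 and 0.56 for the 2 Actc1 sets, none past the threshold. The cytoplasmic actin Actg1 was at 0.20 in leg (-0.123 to 0.523 with the block within tissue and -0.35 to 0.75 without a block).

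**Figure D4:**
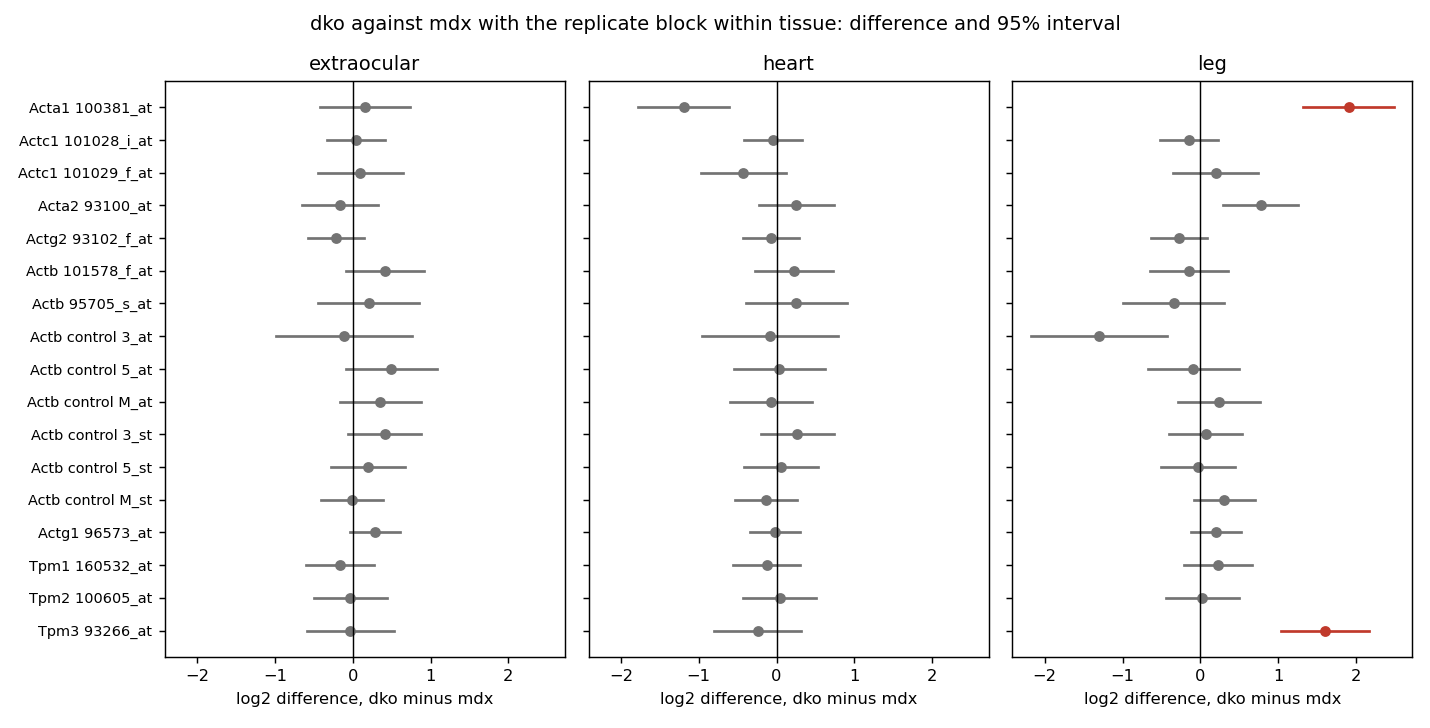
Log2 difference, dko minus mdx (horizontal axis), of the 17 tested probe sets (vertical axis) in each tissue, from the fit with the replicate block within tissue; points are estimates, lines are 95% intervals, and red marks an adjusted p under 0.05. Acta1 (1.91) and Tpm3 (1.60) in leg are the 2 in red; without a block none passes.

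Other genes of the thin filament and its surroundings were counted from lists, each gene by its brightest probe set. Of the 8 troponins, 3 rose in dko leg with the block within tissue, and each is the slow or cardiac form: Tnnc1 (2.48), which binds calcium, Tnnt1 (1.94), which binds tropomyosin, and Tnni1 (0.98), which inhibits (adjusted p = 0.000305, 0.0177 and 0.0388). Without a block 0 rose, with adjusted p = 0.054, 0.313 and 0.719, and with the common block Tnnc1 and Tnnt1 rose. The list's median was 0.96, against -0.04 over all probe sets. Of the genes that set thin filament length and cap its ends, 0 of 8 changed in leg in either fit (median 0.21).

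Of the 15 tested genes that bind actin monomers and turn filaments over, Tmsb10, a thymosin that holds actin monomers, rose (1.00, adjusted p = 0.0342) and Pfn2, a profilin that loads them, fell (-0.66, adjusted p = 0.0436), both with the block within tissue (adjusted p = 0.517 and 0.533 without a block, and 0.0505 and 0.0301 with the common block). The list's median was 0.26. Of the Arp2/3 complex, which starts branched filaments, 0 of 8 changed (median 0.16), and of the chaperones that fold actin together with Srf and its cofactors 0 of 11 (median 0.11), in both fits.

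Lists of fibre types and other cells were counted in the same way, because in bulk tissue fewer cells of a type and less RNA per cell cannot be told apart. In dko leg with the block within tissue 6 of 7 slow fibre genes rose, led by Myh7, slow myosin heavy chain (4.40), and Myl2, its regulatory light chain (4.05), and 5 of 8 regenerating fibre genes rose, led by Myh3, embryonic myosin (2.04), against 1.2% of all probe sets called in that fit. Without a block 1 of each list rose, Myh7 and Myh3, against 0.0561% of all. The slow fibre list shares Tnnc1, Tnnt1 and Tnni1 with the troponins. All lists were chosen with earlier results of these data known, so these counts are descriptions and not independent support. The slow fibre list's summed intensity was 88680 to 134300 in dko leg and 22470 to 32850 in mdx leg, and the regenerating list's 40650 to 56220 and 20660 to 29910. Macrophage genes rose in 4 of 10 (0 without a block), with sums of 55420 to 111100 in dko leg and 28070 to 59820 in mdx leg. Fibroblast matrix rose in 1 of 8 in both fits, Postn. Smooth muscle markers, whose sums were 6278 to 9627 in dko leg and 6333 to 9185 in mdx leg, changed in 0 of 5, and fast fibre (0 of 8), cardiac (0 of 6) and endothelial (0 of 6) genes did not pass in leg in either fit. The part of these cell and fibre type shifts in the leg values of Tpm3, Acta1 and Acta2 was not tested.

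For each gene the probe sets most like its brightest one were found over the 18 arrays, by Pearson's r of log2 values after the mean of each array number was subtracted. These are descriptions, since the arrays share tissues, genotypes and numbers. Tpm2 was most like Pvalb, the calcium buffer parvalbumin (r = 0.996), and Ryr1, the calcium release channel of skeletal muscle (0.993), both of which were low in the 6 hearts. Tpm3 was most like Tnnt1 101383_at, slow troponin T (0.959, and 0.918 without the subtraction), and Armcx2 (0.947). Tnnt1 by that probe set read 3389.1, 4284.4 and 2908.4 in dko leg and 2565.0, 2110.5 and 1496.8 in mdx leg, and its groups did not overlap there. Ranges were apart in leg for 9.94% of all tested probe sets. Because Tnnt1 101383_at was picked for its likeness to Tpm3 over these same arrays, its leg values are not separate support for Tpm3. Tpm1 was most like Ptpn21 (0.92), a tyrosine phosphatase, and Tnxb (0.898), a tenascin of the matrix.

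The actins had weaker likenesses than Tpm2 and Tpm3, and several of them fell without the subtraction. Acta1 was most like Elob (0.922, 0.662 without the subtraction) and Htt (0.918, 0.735), and Actc1 most like Tcn2 (0.923, 0.487) and Ndufa3, a subunit of complex I (0.906, 0.944). Acta2 was most like Strn4 (0.835) and Actn4, a non-muscle alpha-actinin that crosslinks actin (0.83), and Actg2 most like Prom1 (0.852) and Unc119 (0.826). Actg1 was most like Cd53 (0.844) and Cd48 (0.83), both of which code for surface proteins of leukocytes. Actb by its middle control set was most like Cited1 (0.901) and Phtf1 (0.851), but without the subtraction these were 0.00854 and 0.111.

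**Figure D5:**
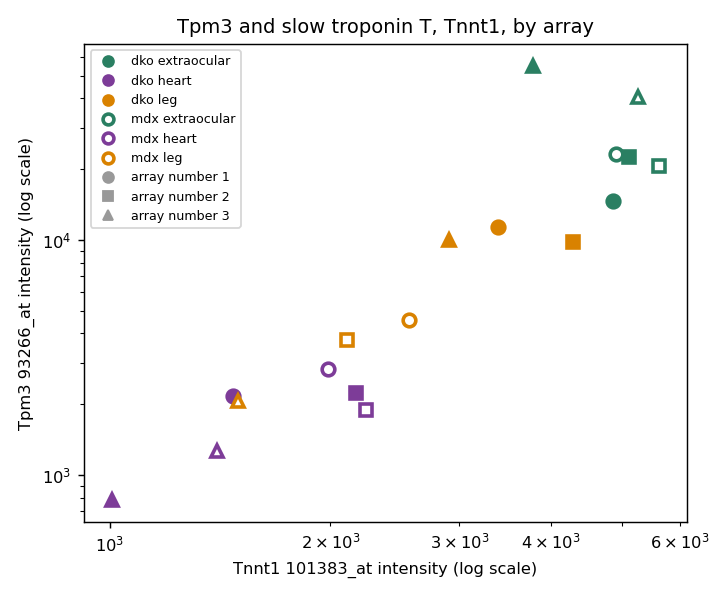
Intensity of Tpm3 93266_at (vertical axis, log scale) against Tnnt1 101383_at (horizontal axis, log scale) in 18 arrays; colour marks the tissue, filled symbols are dko, open symbols are mdx, and shapes are array numbers. Extraocular arrays lie at the top right, hearts at the bottom left, and the 3 dko leg arrays lie above and to the right of the 3 mdx leg arrays.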

How the data were processed

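The deposited table holds linear intensities of 12488 probe sets on 18 arrays, as the authors made them; no label or header names the software. The table's values had been scaled to a common level: with 2% of the values trimmed, each array's mean was 1500.69 to 1501.15. Gene symbols came from the platform annotation (10833 probe sets with 1 symbol, 396 with several and 1237 with none, beside 66 control sets, of which 22 have 1 mouse symbol and were kept).

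Probe sets above the 40th percentile of their array on at least 3 of 18 arrays were kept (8915). log2(intensity + 166.1) was fitted in limma 3.58.1 (R 4.3.3) with 6 group means and no block, and p-values were two-sided and adjusted by Benjamini-Hochberg within each comparison. Residual degrees of freedom were 12, or 6 with a replicate block within tissue and 10 with a block common to all arrays. The block was checked from the data: deviations from the group means correlated at 0.407 to 0.752 (median 0.61) in the 9 same-tissue pairs of one number, so the numbers were taken to pair the samples. Arrays of one number in different tissues also deviated together (0.328 to 0.74, median 0.535, 36 pairs), so that a block common to all arrays was fitted too, under which 0 of 17 member probe sets were called between genotypes. The pairing comes from the replicate numbers of the labels, which do not say what a number shares.

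Named genes were every member probe set, at most 4 genes of a list per genotype comparison with the smallest adjusted p among those called, and the 2 most alike genes per member. The members and lists were chosen with earlier results of these data known. Alternatives were the 2 blocks, an offset of 50, quantile and 75th-percentile scaling, no filter, the compared groups alone and each array left out. Leaving out the 6 arrays numbered 3 and the paired test of the control probe sets were added after seeing the data. The fit was tested on simulated data. The number of arrays limits the precision. Python 3.11.15 with pandas 2.3.3 and matplotlib 3.10.9 made the tables and figures.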

Additional observations from a re-analysis of the deposited data

Results flagged for a closer look

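The genotype difference of Acta1, skeletal alpha-actin, differed between heart and leg: dko minus mdx in heart less dko minus mdx in leg was -3.10 on the log2 scale in the limma fit with the replicate block within tissue (adjusted p = 0.0212). Acta1 was lower in dko in 3 of 3 heart pairs of the same number and higher in dko in 3 of 3 leg pairs. With 1 pair of arrays left out the difference was -3.25 to -2.89 over the leg pairs (adjusted p = 0.0411 to 0.107) and -3.23 to -2.93 over the heart pairs (0.0409 to 0.112). It had an adjusted p of 1 without a block, 0.375 with the common block, and 0.124 without a block and 0.25 with the block within tissue when the 6 arrays numbered 3 were left out.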

How the results depend on the processing

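Of 4216 values under an alternative, 4120 kept their direction and side of the threshold or moved little. A further 28 passed only under the alternative, 9 no longer passed, 59 moved and 0 were called in the opposite direction. Signs changed below the threshold for 314 of 1836 values with 1 array left out and 77 of 612 with 1 pair left out. Without the 6 arrays numbered 3 they changed for 43 of 221 without a block and 32 of 119 with the block within tissue. Quantile scaling changed 12 of 221 signs and the offset of 50 changed 2 of 221. The replicate block within tissue, which the pairing bears on, raised the members called higher in dko leg to 2 and those called lower in the heart minus leg difference to 1, and it changed no other call. With the block common to all arrays the members called higher were 5 for dko extraocular muscle against heart, 1 for dko extraocular muscle against leg and 1 for dko heart against leg. In mdx they were 3 for extraocular muscle against heart, 3 for extraocular muscle against leg and 3 for heart against leg. Quantile scaling gave 1 for dko heart against leg. With the compared groups alone, 1 was higher for mdx extraocular muscle against leg and 0 for mdx heart against leg. Leaving out 1 array gave 0 to 1 for dko extraocular muscle against leg, 1 to 2 for mdx extraocular muscle against leg and 0 to 1 for mdx heart against leg. With the block and 1 pair left out, 0 to 1 were higher in dko leg and 0 to 1 lower in the heart minus leg difference. Leaving out the 6 arrays numbered 3, chosen after seeing the data, gave 5 for dko extraocular muscle against heart, 1 for dko extraocular muscle against leg and 1 for dko heart against leg, and it added Actc1 101029_f_at for mdx extraocular muscle against heart (1.53, adjusted p = 0.0359). The causes of these changes were not tested. Dim probe sets and 3 arrays per group limit what can pass, and 2 of 19 probe sets were too dim to test.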
